A study of Oryctolagus cuniculus with 134 samples.

Results

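LIPE, PLIN2, ADIPOQ, LPL and CIDEC, genes of lipid storage and lipid release, were followed through the aorta and the 4 cardiac valves of rabbits under 4 treatments. The set was chosen by name: of 7 symbols sought (LIPE, PLIN1, PLIN2, ADIPOQ, FABP4, LPL and CIDEC), 5 were found among the 29587 genes of the count tables, 14716 of which carried a symbol. PLIN1 and FABP4 were not found by name and were not analysed here. LIPE (ENSOCUG00000000017), PLIN2 (ENSOCUG00000012244), ADIPOQ (ENSOCUG00000026268), LPL (ENSOCUG00000008236) and CIDEC (ENSOCUG00000005302) each had 1 entry.

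Fat cells keep triglyceride in a droplet whose surface is coated by proteins of the perilipin and CIDE families, take up fatty acids that lipoprotein lipase frees from circulating lipoproteins, and release them again through hormone-sensitive lipase. Macrophages that have taken up lipoprotein cholesterol also hold droplets, and these are typically coated by PLIN2 rather than by the droplet proteins of fat cells. Vessel wall and valve tissue can therefore carry these transcripts from adjoining fat, from lipid-laden cells, or from muscle and other cells that burn fatty acids.

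The study asked how a cholesterol-rich diet, a lard diet and added cardiac irradiation affect the thoracic aorta (Ao) and the aortic (AoV), mitral (MV), pulmonary (PV) and tricuspid (TV) valves. Male New Zealand White rabbits entered at 12 weeks of age and were kept for 16 weeks on chow (Ctrl), on 0.3% cholesterol (CHT), on 5% lard (Lard), or on the cholesterol diet with X-rays aimed at the aortic valve and thoracic aorta, 24 Gy given as 3 fractions of 8 Gy from week 8 (IR/CHT). CHT, Lard and IR/CHT animals also received 25000 U of vitamin D2 a day for 15 days, and Ctrl animals none, so each contrast with Ctrl joins a diet with the vitamin and the parts of these cannot be told apart. CHT and Lard share the vitamin, and IR/CHT and CHT share both diet and vitamin. Rabbit numbers in the column names fell into 1 series for Ctrl, another for CHT and Lard, and a further one for IR/CHT. What these series stand for is not given, and IR/CHT against CHT also crosses them. RNA of 27 rabbits gave 134 libraries, 1 per tissue and animal, with 7 libraries in a group except for 6 in each CHT group and 6 in MV Ctrl. Each tissue piece was cut from 1 animal and frozen whole, so a level is a sum over all cells of the piece. In such bulk samples, fewer cells of a type and less RNA per cell cannot be told apart.

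Levels below are CPM, the count of a gene relative to the total of its library, with totals scaled over all 134 libraries, and each group is given as its lowest, median and highest library. Gene length was not available for this annotation, so levels are compared between samples and not between genes. Changes are log2 fold changes ± SE from edgeR's quasi-likelihood fit within a tissue, with p-values adjusted over all genes tested there by Benjamini-Hochberg, and a gene is called when its adjusted p is under 0.05 and its fold exceeds 1.5. Library totals ran from 13564979 to 50577676 counts, with a median of 18235577. Libraries were spread over 2 plates: all aortas were on plate 2, all AoV and MV CHT libraries were on plate 1, and the other groups of the valves were split. Smooth muscle genes separated the tissues as labelled, with summed levels of 81404 to 113373 CPM in the Ctrl aortas against 716 to 1791 CPM in the Ctrl valves.

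A few libraries stood apart from their group. Aorta IR/CHT L566 held 3034 CPM of 9 heart muscle genes (183.3 to 764 in the other libraries of its group) and the lowest sum of smooth muscle genes, 11380 CPM. AoV Ctrl L150 had the highest sum of fat cell genes in its group, 44.3 CPM, and AoV Ctrl L240 and L277 held 12804 and 4526 CPM of heart muscle genes. PV IR/CHT L176 held 21378 CPM of smooth muscle genes (984 to 2646 in the others), and PV IR/CHT L275 held 255 CPM of endothelial genes (1367 to 1846 in the others). Called values of the set within a tissue are given with and without the library where one of these changes the call.

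PLIN2 encodes perilipin 2, the droplet coat protein present in most cells that hold neutral lipid. It was higher on the cholesterol diet in the aorta, AoV and MV, rose much further in AoV when irradiation was added, and was not called on lard in any tissue or in PV and TV under any treatment. In AoV, PLIN2 was at 11.8, 24.8 and 30.2 CPM in Ctrl, 18.1, 23.8 and 30.3 CPM in Lard, 47.1, 67.7 and 102 CPM in CHT, and 185.4, 230.9 and 445 CPM in IR/CHT. Ctrl and Lard lay over each other, every CHT library was above both, and every IR/CHT library was above every CHT library. In the aorta, the levels were 25.0, 30.6 and 34.3 CPM in Ctrl, 29.1, 35.2 and 37.7 CPM in Lard, 51.6, 77.5 and 118 CPM in CHT, and 73.7, 114 and 209 CPM in IR/CHT. In MV they were 22.1, 26.8 and 29.2 CPM in Ctrl, 20.6, 26.8 and 32.3 CPM in Lard, 40.2, 65.1 and 88.7 CPM in CHT, and 61.5, 94.1 and 145 CPM in IR/CHT. The CHT and IR/CHT libraries of these tissues were all above all Ctrl libraries, and they overlapped with each other.

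The right-sided valves gave another picture. In PV, PLIN2 was at 30.1, 31.1 and 36.2 CPM in Ctrl, 29.0, 33.1 and 42.5 CPM in CHT, and 23.1, 41.3 and 54.0 CPM in IR/CHT. In TV, it was at 22.3, 28.3 and 33.3 CPM in Ctrl, 25.6, 31.3 and 36.6 CPM in CHT, and 22.3, 37.1 and 42.8 CPM in IR/CHT. All of these groups overlapped.

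**Figure D1:**
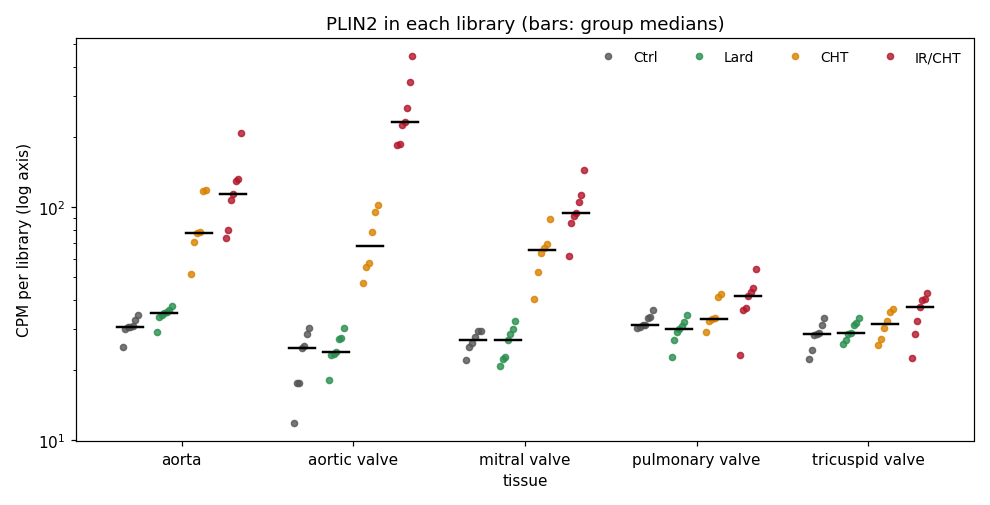
PLIN2 level (CPM, log axis) in each library, by tissue and treatment, with 1 point a library and a bar at the group median. The CHT and IR/CHT points of the aorta, AoV and MV lie above all Ctrl points, the AoV IR/CHT points run from 185.4 to 445 CPM, and the PV and TV groups overlap.

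On the cholesterol diet, PLIN2 was higher than Ctrl by 1.51 ± 0.19 in the aorta (2.85-fold, edgeR adjusted p = 1.27e-06), by 1.71 ± 0.23 in AoV (3.26-fold, adjusted p = 5.08e-06) and by 1.27 ± 0.17 in MV (2.42-fold, adjusted p = 2.02e-05). Against Lard, the diet matched for vitamin D2, the differences were of like size: 1.34 ± 0.19 in the aorta (edgeR adjusted p = 2.46e-05), 1.56 ± 0.23 in AoV (adjusted p = 1.68e-05) and 1.29 ± 0.17 in MV (adjusted p = 6.11e-06). With irradiation added, PLIN2 exceeded Ctrl by 2.05 ± 0.19 in the aorta (edgeR adjusted p = 4.25e-09), by 3.66 ± 0.24 in AoV (12.6-fold, adjusted p = 5.6e-12) and by 1.92 ± 0.17 in MV (3.78-fold, adjusted p = 1.88e-08). IR/CHT exceeded CHT in AoV, by 1.95 ± 0.24 (3.87-fold, edgeR adjusted p = 5.12e-06). In the aorta and MV the same difference was 0.54 ± 0.19 (edgeR adjusted p = 0.123) and 0.64 ± 0.17 (adjusted p = 0.0965), which did not pass. In PV and TV, CHT against Ctrl gave 0.12 ± 0.13 (95% interval -0.14 to 0.38, edgeR adjusted p = 0.829) and 0.15 ± 0.12 (interval -0.09 to 0.38, adjusted p = 0.668). IR/CHT against Ctrl gave 0.31 ± 0.13 in PV (interval 0.06 to 0.56, edgeR adjusted p = 0.249) and 0.30 ± 0.12 in TV (interval 0.07 to 0.53, adjusted p = 0.446), both with an unadjusted p under 0.05.

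These calls held without the libraries that stood apart and within each plate that held both groups. Aorta IR/CHT L566 had the highest PLIN2 of its group, and without it the difference from Ctrl was 1.86 (edgeR adjusted p = 2.75e-09). In AoV, IR/CHT against Ctrl was 3.91 among plate 1 libraries and 3.24 among plate 2 libraries. PLIN2 was also the steadiest of the set: the SD between libraries of 1 treatment and tissue was 0.23 to 0.42 on the log2 scale, against 0.59 to 0.88 for LIPE, 1.08 to 1.96 for LPL, 0.90 to 2.25 for ADIPOQ and 1.36 to 1.87 for CIDEC.

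The difference between tissues was tested directly in 1 fit over tissues. The PLIN2 response to CHT was larger in AoV than in PV by 1.56 ± 0.25 (edgeR adjusted p = 1.92e-06) and larger in MV than in TV by 1.13 ± 0.25 (adjusted p = 0.00256), while AoV and aorta differed by 0.22 ± 0.25 (adjusted p = 0.594). Keeping the rabbit as a block gave 1.55 (limma adjusted p = 1.89e-06) and 1.12 (adjusted p = 0.00429) for AoV over PV and for MV over TV. In these tests 5.11% of all genes were called for AoV against PV, 2.2% for MV against TV and 10.3% for AoV against aorta. The corresponding tests for IR/CHT against Ctrl were chosen after seeing the data. By these, the PLIN2 response in AoV exceeded that in the aorta by 1.67 (edgeR adjusted p = 1.12e-08), that in MV by 1.72 (adjusted p = 1.89e-07) and that in PV by 3.37 (adjusted p = 1.54e-22), against 36.7%, 18.8% and 40.8% of all genes called. The response in MV exceeded that in TV by 1.64 (edgeR adjusted p = 2.2e-07, 8.21% of all genes called). For IR/CHT against CHT, AoV exceeded the aorta by 1.46 (edgeR adjusted p = 1.08e-05, 8.85% of all genes called) and MV by 1.31 (adjusted p = 0.00042, 2.65%).

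Counts of the set's called genes are given beside the share of all tested genes called. On CHT and IR/CHT against Ctrl, that share was also higher in the aorta, AoV and MV than in PV and TV. On CHT against Ctrl, 1 of 5 tested genes was called in the aorta (PLIN2), where 19.4% of all tested genes were called, 2 of 4 in AoV (PLIN2 higher, LIPE lower) against 11.9%, and 1 of 5 in MV (PLIN2) against 5.62%. CIDEC did not pass the low-count filter in AoV and PV, which leaves 4 genes there. On IR/CHT against Ctrl, 3 of 5 were called in the aorta (PLIN2, LPL and LIPE higher) against 34.3% of all genes, 4 of 4 in AoV (PLIN2 and LPL higher, LIPE and ADIPOQ lower) against 42.8%, and 2 of 5 in MV (PLIN2 higher, CIDEC lower) against 17.7%. Among AoV libraries, IR/CHT against CHT and CHT against Lard each called PLIN2 and LPL, against 19.7% and 7.94% of all genes. CHT against Lard called PLIN2 alone in the aorta and in MV, against 9.35% and 6.05%.

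No gene of the set was called by edgeR in the other 15 comparisons within a tissue. On Lard against Ctrl, 0 were called in each tissue, where 2.61% of all genes were called in the aorta, 0.234% in AoV and 0.0% in MV, PV and TV. An unadjusted p under 0.05 was reached there by ADIPOQ and LPL in AoV and by 0 genes of the set in the other tissues, and DESeq2 called LPL in AoV (-2.07, adjusted p = 0.0209) and none elsewhere. On IR/CHT against CHT, 0 were called in the aorta (0.596% of all genes called) and in MV (0.189%), where 2 genes each had an unadjusted p under 0.05 (LIPE and PLIN2, PLIN2 and CIDEC) and DESeq2 called 1 each (LIPE and PLIN2). In PV, 0 were called on CHT (0.159% of all genes), on IR/CHT against Ctrl (0.706%), on IR/CHT against CHT (0.0761%) and on CHT against Lard (0.152%). The unadjusted p was under 0.05 for 0, 2, 3 and 1 of them, and DESeq2 called 0. In TV, 0 were called on CHT (0.163%), on IR/CHT against Ctrl (0.231%), on IR/CHT against CHT (0.0%) and on CHT against Lard (0.0884%), with an unadjusted p under 0.05 for 1, 3, 0 and 0 of them. DESeq2 called ADIPOQ in TV on IR/CHT against Ctrl (-2.56, adjusted p = 0.0159) and nothing else of the set there.

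**Figure D2:**
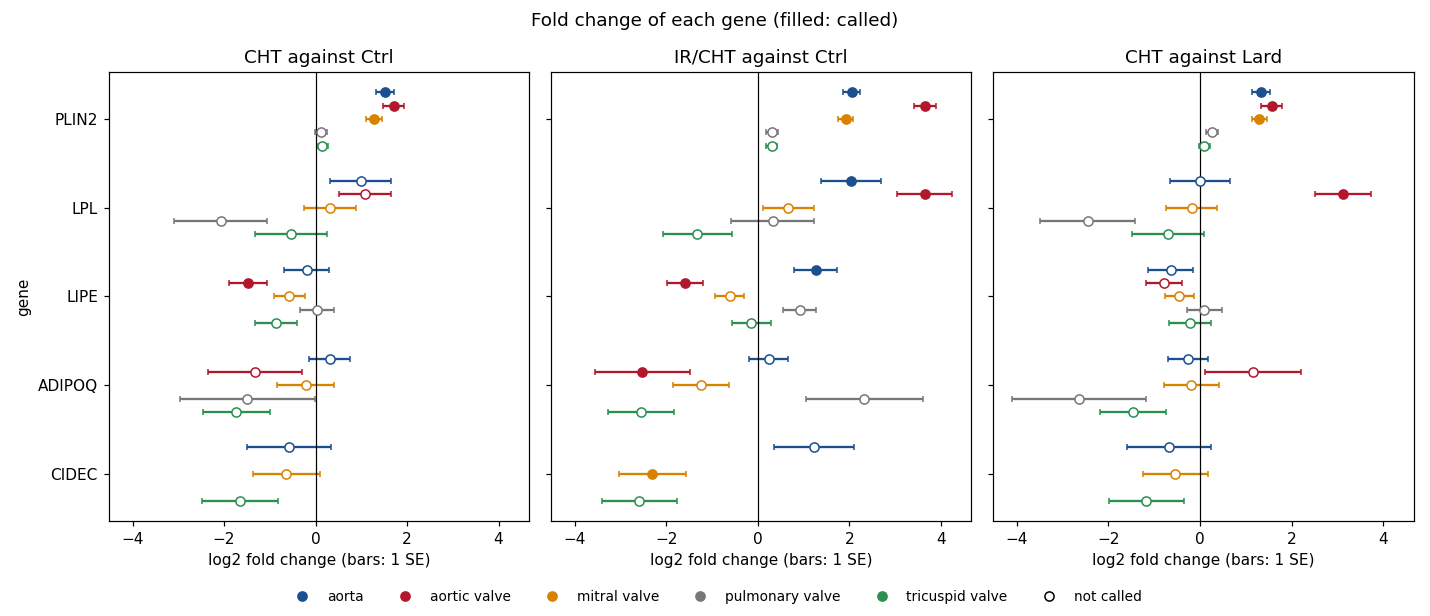
Log2 fold change from edgeR for each gene of the set and each tissue, in panels for CHT against Ctrl, IR/CHT against Ctrl and CHT against Lard, with bars of 1 SE and filled points for called values. PLIN2 under IR/CHT in AoV stands at 3.66 with a short bar, while the bars of ADIPOQ and CIDEC are wider than those of PLIN2 wherever they were tested.

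CIDEC, a droplet protein that fuses droplets and is abundant in fat cells, was called in 1 comparison. In the aorta, it was at 0, 1.71 and 13.8 CPM in Ctrl, 0.247, 0.648 and 7.83 CPM in CHT, 0.132, 1.66 and 12.0 CPM in Lard, and 1.94, 6.90 and 17.6 CPM in IR/CHT. The groups overlapped over most of their range, and IR/CHT against Ctrl gave 1.23 ± 0.87 (edgeR adjusted p = 0.244). In MV, CIDEC was at 0.417, 8.84 and 14.2 CPM in Ctrl, 0.202, 3.23 and 14.5 CPM in CHT, 3.17, 8.17 and 15.8 CPM in Lard, and 0.409, 1.13 and 4.68 CPM in IR/CHT. The highest IR/CHT library stayed under the Ctrl median, although the groups overlapped, and the fall of -2.30 ± 0.74 was called (edgeR adjusted p = 0.0213). That call was lost when MV Ctrl L262 (-2.05) or L278 (-2.08) was left out, and with no low-count filter (-2.24, edgeR adjusted p = 0.0546). It was also lost among plate 1 libraries alone. In TV, CIDEC was at 0.977, 4.43 and 19.0 CPM in Ctrl and 0.116, 0.707 and 2.08 CPM in IR/CHT, a difference of -2.59 ± 0.82 that did not pass (edgeR adjusted p = 0.287). AoV and PV libraries were almost empty of it, with at most 1.86 CPM in AoV outside L150 (4.50 CPM) and at most 3.54 CPM in PV outside L176 (5.71 CPM).

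LIPE encodes hormone-sensitive lipase, which releases fatty acids from stored lipid. Under IR/CHT it was higher than Ctrl in the aorta and lower in AoV. In the aorta, LIPE was at 1.80, 2.54 and 7.90 CPM in Ctrl, 0.989, 2.05 and 8.77 CPM in CHT, 2.24, 4.85 and 11.2 CPM in Lard, and 4.02, 9.12 and 15.7 CPM in IR/CHT. The IR/CHT libraries overlapped with Ctrl but were centred above it, by 1.27 ± 0.47 (2.41-fold, edgeR adjusted p = 0.0272). The call held in 22 of 27 fits that left out 1 library, over a range of 1.09 to 1.52, and was lost without Ctrl L551, L553, L568 or L570 or IR/CHT L565, while without L566 it was 1.23 (edgeR adjusted p = 0.0447).

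In AoV, LIPE was at 5.02, 6.69 and 27.0 CPM in Ctrl, 3.37, 6.56 and 11.1 CPM in Lard, 1.70, 3.44 and 7.73 CPM in CHT, and 3.08, 3.11 and 4.41 CPM in IR/CHT. Every IR/CHT library was below every Ctrl library, while CHT and Ctrl overlapped. LIPE fell by 1.59 on the log2 scale with IR/CHT (SE 0.39, edgeR adjusted p = 0.00144) and by 1.48 with CHT (SE 0.41, adjusted p = 0.0155). Without L150, the library at 27.0 CPM, IR/CHT against Ctrl was -1.16 (edgeR adjusted p = 0.00792), and CHT against Ctrl was -1.05 and no longer passed (adjusted p = 0.0664). The CHT call was also lost among plate 1 libraries alone (-1.77, edgeR adjusted p = 0.0712) and in a fit of the CHT and Ctrl libraries only (-1.49, adjusted p = 0.0888). Among plate 2 libraries, IR/CHT against Ctrl was -1.25 (edgeR adjusted p = 0.0565). The IR/CHT response of AoV was below that of the aorta by 2.81 on the log2 scale (-2.81 ± 0.58, edgeR adjusted p = 5.35e-05), a test chosen after seeing the data. For CHT the same difference did not pass (-1.27 ± 0.60, edgeR adjusted p = 0.149).

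No LIPE change was called in MV, PV or TV. MV medians ran from 4.85 CPM in CHT to 9.55 CPM in Lard, PV medians from 1.96 to 3.43 CPM, and TV medians from 3.05 to 3.53 CPM. The highest PV library was IR/CHT L275 at 8.48 CPM, and IR/CHT against Ctrl in PV was 0.92 ± 0.36 (edgeR adjusted p = 0.229), or 0.62 without that library (adjusted p = 0.642).

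LPL, lipoprotein lipase, frees fatty acids from circulating lipoproteins and is made by fat, heart muscle and macrophages. In AoV, it was at 6.70, 23.6 and 80.2 CPM in Ctrl, 2.59, 7.76 and 17.4 CPM in Lard, 43.1, 74.7 and 87.0 CPM in CHT, and 114, 177.4 and 1014 CPM in IR/CHT. Every CHT library was above every Lard library and every IR/CHT library was above all others, while CHT and Ctrl overlapped. The called differences were 3.65 ± 0.60 for IR/CHT against Ctrl (12.5-fold, edgeR adjusted p = 1.61e-05), 2.57 ± 0.61 for IR/CHT against CHT (5.93-fold, adjusted p = 0.00292) and 3.12 ± 0.60 for CHT against Lard (8.72-fold, adjusted p = 0.000565). CHT against Ctrl gave 1.08 ± 0.57 (edgeR adjusted p = 0.191) and Lard against Ctrl -2.05 ± 0.57 (adjusted p = 0.215), neither of which passed.

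The median IR/CHT level of LPL in AoV was higher on plate 1 than on plate 2, with ranges that overlapped. A difference between plates was not tested. The 4 libraries of plate 1 were at 126, 581.2 and 1014 CPM and the 3 of plate 2 at 114, 142 and 177.4 CPM. Against Ctrl on the same plate the differences were 4.76 (edgeR adjusted p = 0.000316) and 1.91 (adjusted p = 0.0628), the second of which did not pass. Leaving out AoV Ctrl L240, the library with the most heart muscle transcript, gave 4.05 (edgeR adjusted p = 8.71e-06).

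In the aorta, LPL was at 1.70, 23.0 and 96.6 CPM in Ctrl, 26.8, 93.8 and 124 CPM in CHT, 19.8, 60.7 and 224 CPM in Lard, and 78.4, 170.7 and 372 CPM in IR/CHT. Of the Ctrl libraries, 3 reached into the lower end of the IR/CHT range and 4 lay below it. IR/CHT exceeded Ctrl by 2.03 ± 0.66 (4.09-fold, edgeR adjusted p = 0.0116), or 2.00 without L566 (adjusted p = 0.0187), and CHT against Ctrl gave 0.99 ± 0.66 (adjusted p = 0.276). LPL was not called in MV, PV or TV. TV medians were 214 CPM in Ctrl, 133 CPM in CHT, 189.1 CPM in Lard and 48.6 CPM in IR/CHT, and these groups overlapped (IR/CHT against Ctrl -1.32 ± 0.76, edgeR adjusted p = 0.701). PV libraries ran from 0.813 to 92.7 CPM in Ctrl and from 1.90 to 8.12 CPM in CHT.

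ADIPOQ encodes adiponectin, a hormone secreted by fat cells and in common use as their marker. In the aorta, it was at 5.99, 26.8 and 41.9 CPM in Ctrl, 7.52, 36.4 and 45.8 CPM in CHT, 15.9, 29.3 and 73.5 CPM in Lard, and 16.6, 25.0 and 61.0 CPM in IR/CHT. All 4 aortic groups overlapped, with 0.31 ± 0.44 for CHT (edgeR adjusted p = 0.648) and 0.24 ± 0.43 for IR/CHT (adjusted p = 0.66). In MV it was at 2.21, 17.8 and 35.4 CPM in Ctrl and 2.26, 5.12 and 15.1 CPM in IR/CHT (-1.24 ± 0.60, edgeR adjusted p = 0.133). In TV it was at 3.80, 16.8 and 71.2 CPM in Ctrl and 0.707, 3.07 and 10.5 CPM in IR/CHT (-2.56 ± 0.72, edgeR adjusted p = 0.198). The IR/CHT medians of MV and TV were thus under their Ctrl medians without passing the test.

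AoV and PV held little ADIPOQ. In AoV it was at 0, 1.0 and 14.8 CPM in Ctrl, 0.492, 1.09 and 2.25 CPM in CHT, 0, 0.186 and 2.83 CPM in Lard, and 0, 0.338 and 2.00 CPM in IR/CHT. Only Ctrl L150 rose above 2.83 CPM, and the groups overlapped. The called fall with IR/CHT (-2.53 ± 1.04, edgeR adjusted p = 0.0465) was -1.07 without L150 (adjusted p = 0.377) and -2.59 without L240 (adjusted p = 0.0516), neither of which passed, and it held in 13 of 27 fits that left out 1 library. In PV the medians were 0.106 to 0.689 CPM, and IR/CHT L176 and L259 stood at 14 and 13.3 CPM.

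**Figure D3:**
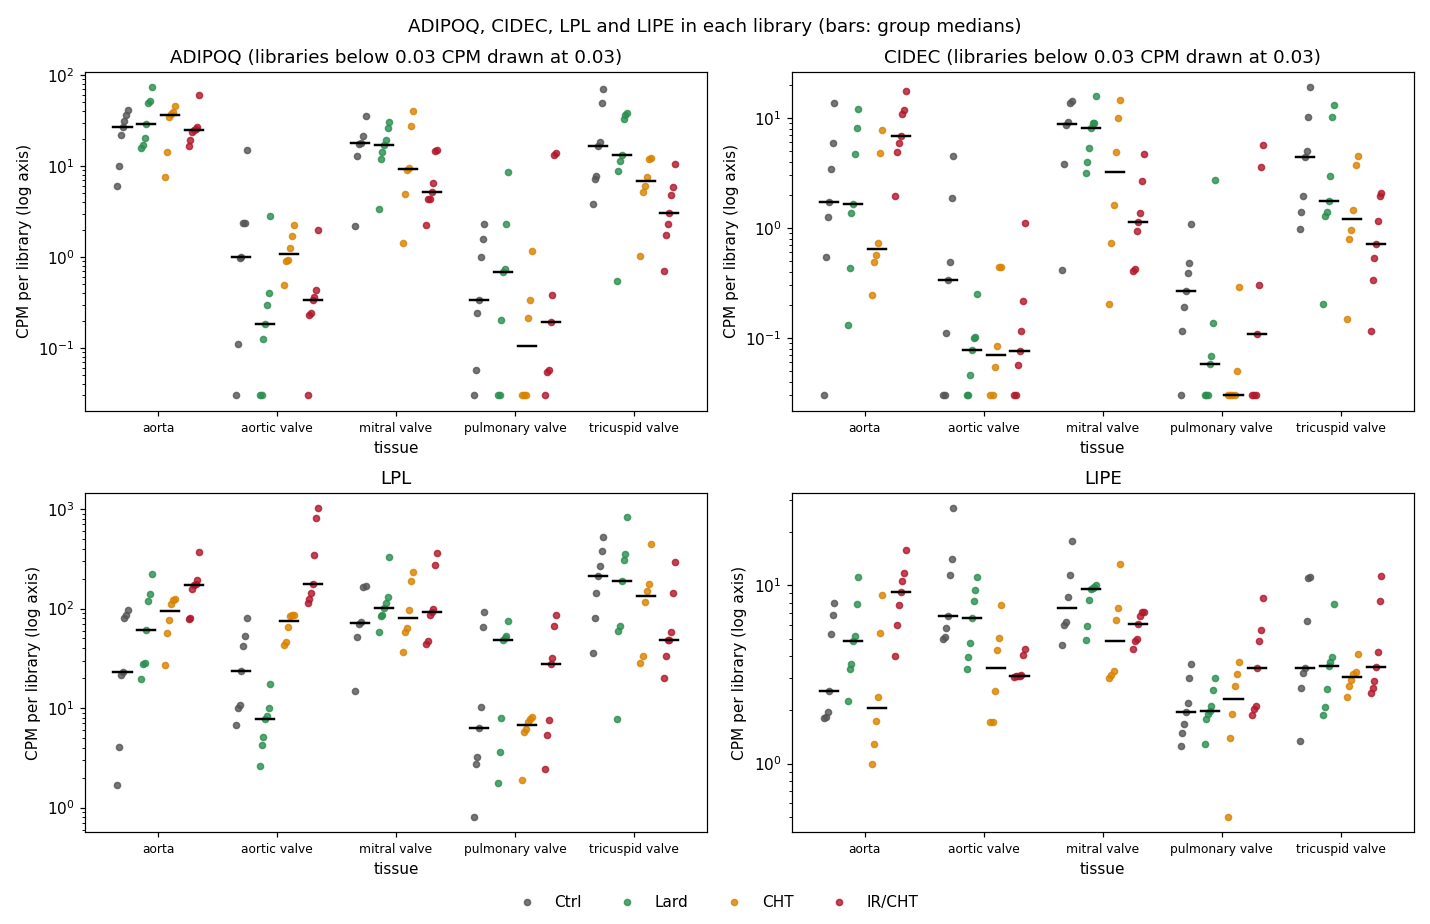
Levels of LIPE, LPL, ADIPOQ and CIDEC (CPM, log axis) in each library, by tissue and treatment, with a bar at each group median. LPL in AoV separates CHT from Lard and IR/CHT from all other groups, while ADIPOQ and CIDEC groups overlap in every tissue and AoV Ctrl L150 is the high point of its group at 14.8 CPM of ADIPOQ.

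Within a treatment, the genes of the set parted into those that varied with ADIPOQ and those that did not. Over libraries with treatment means removed, LPL followed ADIPOQ in the aorta (Pearson's r = 0.866, Spearman's rho = 0.844, permutation p = 1e-05, the smallest the permutations can give, adjusted p = 0.00041 over 41 relations, r = 0.828 without the 2 farthest libraries). The same pair gave r = 0.752 in MV (rho = 0.675, permutation adjusted p = 0.00041, 0.633 without the farthest 2, 0.743 within plates), 0.722 in PV (rho = 0.713, adjusted p = 0.00041, 0.686 and 0.696) and 0.701 in TV (rho = 0.660, adjusted p = 0.00196, 0.658 and 0.704). In AoV it gave r = 0.470 (rho = 0.323, permutation adjusted p = 0.118). ADIPOQ was low in both AoV and PV, with group medians of 0.186 to 1.09 CPM in AoV and 0.106 to 0.689 CPM in PV. CIDEC followed ADIPOQ in the aorta (r = 0.724, rho = 0.741, permutation adjusted p = 0.000923, 0.773 without the farthest 2), MV (r = 0.809, rho = 0.726, adjusted p = 0.00041, 0.638) and TV (r = 0.734, rho = 0.709, adjusted p = 0.000478, 0.585).

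PLIN2 did not follow ADIPOQ in any tissue, with r from -0.122 to 0.320. It followed 13 macrophage genes in the aorta (r = 0.639, rho = 0.524, permutation adjusted p = 0.00082, 0.466 without the farthest 2) and MV (r = 0.693, rho = 0.707, adjusted p = 0.00041, 0.664 and, within plates, 0.714). In PV the relation, r = 0.729 (rho = 0.518, permutation adjusted p = 0.0157), rested on 2 libraries, since without them r was 0.291. In AoV, where the PLIN2 change was largest, the libraries of a treatment showed none (r = -0.0655, rho = -0.0659, permutation adjusted p = 0.86), and in TV it was 0.467 (rho = 0.287, adjusted p = 0.118). LIPE passed with neither measure, its largest r with ADIPOQ being 0.525 in MV (permutation adjusted p = 0.0919).

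The level of heart muscle genes was set beside that of LPL in each tissue. This list was set against the members after seeing the data (23 relations). LPL followed it in TV (r = 0.872, rho = 0.827, permutation adjusted p = 0.00023, 0.797 without the farthest 2, 0.886 within plates) and PV (r = 0.847, rho = 0.863, adjusted p = 0.000345, 0.879 and 0.832), and so did ADIPOQ (r = 0.771, rho = 0.667 and adjusted p = 0.00069 in TV, r = 0.644, rho = 0.659 and adjusted p = 0.00431 in PV). For LPL the list gave r = 0.101 in MV (rho = 0.0455, permutation adjusted p = 0.733), 0.306 in AoV (rho = 0.213, adjusted p = 0.406, -0.00927 without the farthest 2, 0.402 within plates) and 0.1 in the aorta (rho = 0.187, adjusted p = 0.699), none of which passed, and whether these differ from TV and PV was not tested. The sum of the list ran from 620 to 44346 CPM over TV Ctrl libraries and from 34.4 to 5743 CPM over PV Ctrl libraries, while PV CHT libraries, none of which passed 8.12 CPM of LPL, held 13.0 to 50.1 CPM of it. MV Ctrl libraries held 166.9 to 2277 CPM. The part of heart muscle in the LPL levels was not tested.

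**Figure D4:**
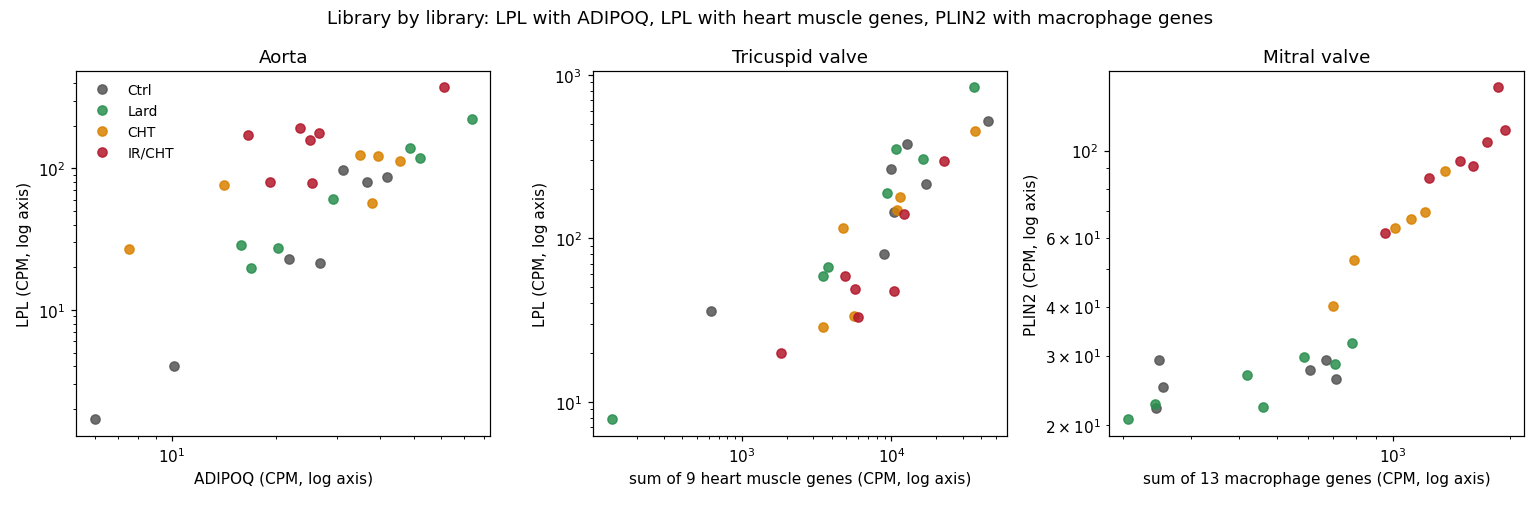
Each point is a library, coloured by treatment, on log axes in CPM: LPL against ADIPOQ in the aorta, LPL against the sum of 9 heart muscle genes in TV, and PLIN2 against the sum of 13 macrophage genes in MV. Points of 1 treatment rise together in all 3 panels (r = 0.866, 0.872 and 0.693 once treatment means are removed). The r with the macrophage genes was computed on the mean of their log2 CPM, not on the sum drawn.

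In the aorta, where ADIPOQ itself was not called, it was also fitted as a covariate. LPL then differed from Ctrl by 1.30 on CHT (edgeR adjusted p = 0.0137) and by 2.21 on IR/CHT (adjusted p = 3.65e-05), and LIPE on IR/CHT by 1.02, which no longer passed (adjusted p = 0.0584). Since LPL and ADIPOQ vary together, these are differences at a given ADIPOQ level and not further evidence of a change in LPL.

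Most genes of lipid-laden macrophages were higher in the tissues where PLIN2 rose. They include ABCA1, which exports cholesterol, GPNMB and CTSB, a glycoprotein and a protease of lysosome-rich macrophages, and FABP5, a fatty acid carrier. On CHT against Ctrl, 12 of 14 were called higher in the aorta (median 3.07), 13 of 14 in AoV (2.80), 11 of 14 in MV (2.01), 1 of 13 in PV (0.57) and 2 of 14 in TV (0.24), and none was lower, where 19.4%, 11.9%, 5.62%, 0.159% and 0.163% of all genes were called. On IR/CHT the counts were 13 of 14 in the aorta (3.56), 13 of 14 in AoV (4.51), 13 of 14 in MV (2.63), 4 of 13 in PV (0.92) and 2 of 14 in TV (0.59), against 34.3%, 42.8%, 17.7%, 0.706% and 0.231% of all genes. The median over all genes stayed between -0.06 and 0.04 in every comparison.

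GPNMB in AoV was at 4.0, 6.71 and 12.1 CPM in Ctrl, 544.8, 830 and 1954 CPM in CHT, and 3278, 3810 and 9052 CPM in IR/CHT, 7.26 ± 0.42 and 9.54 ± 0.46 above Ctrl. ABCA1 was also called in the valves where PLIN2 was not: in PV it was at 73.7, 105 and 145 CPM in Ctrl and 528, 601 and 729 CPM in CHT (2.47 ± 0.15, edgeR adjusted p = 1.58e-11), and in TV at 58.5, 115 and 155.3 CPM and 488, 712 and 845 CPM (2.69 ± 0.21, adjusted p = 2.13e-08). The ranges of CHT and Ctrl did not meet for ABCA1 in either valve.

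Most of the 13 macrophage genes were called higher than Ctrl in the 3 tissues where PLIN2 was, and, on Lard, 7 of 13 in the aorta (2.61% of all genes), where PLIN2 was not called. On CHT, 11 of 13 were called higher in the aorta, 7 in AoV, 10 in MV and 0 in PV, and 0 of 12 in TV, against 19.4%, 11.9%, 5.62%, 0.159% and 0.163% of all genes. On IR/CHT they were 13, 11, 11 and 2 of 13 and 2 of 12, against 34.3%, 42.8%, 17.7%, 0.706% and 0.231%. Their sum in AoV was 207, 527 and 659 CPM in Ctrl, 139, 272.7 and 789 CPM in Lard, 940, 1313 and 1406 CPM in CHT, and 2522, 3036 and 3157 CPM in IR/CHT. In PV it was 568.6, 706 and 739 CPM in Ctrl and 530, 725 and 819 CPM in CHT. No macrophage or lipid-laden marker was at 0 throughout a group. The part of macrophage number in the PLIN2 difference was not tested.

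Fat cell identity genes had no common direction. Of 20 listed, 13 were found, and on IR/CHT against Ctrl 5 of 10 tested were higher and 1 lower in the aorta, 3 higher and 2 lower of 6 in AoV, 2 higher and 5 lower of 11 in MV, 0 of 5 in PV, and 1 lower of 8 in TV, against 34.3%, 42.8%, 17.7%, 0.706% and 0.231% of all genes called in either direction. The members that rose in AoV were PPARG, the receptor that directs fat cell formation (0.521, 1.15 and 3.75 CPM in Ctrl, 8.73, 12.5 and 21.3 CPM in IR/CHT, 3.03 ± 0.38, edgeR adjusted p = 2.54e-07), KLB, a co-receptor for endocrine FGFs (0, 0.0523 and 4.57 CPM, then 28.8, 47.3 and 164 CPM, 6.62 ± 0.94, adjusted p = 1.92e-06), and CEBPA (2.37, adjusted p = 0.00044). PPARG and CEBPA are also expressed in macrophages. The members lower in MV included LEP, the hormone leptin (0, 0.728 and 3.18 CPM in Ctrl, 0, 0.0584 and 0.325 CPM in IR/CHT, -3.36 ± 0.78, edgeR adjusted p = 0.0021), CIDEA, another droplet protein (-2.57 ± 0.54, adjusted p = 0.000865), and THRSP, a regulator of fatty acid synthesis (-3.30 ± 0.76, adjusted p = 0.00204). The summed level in MV was 15.1 to 103 CPM in Ctrl and 25.0 to 83.9 CPM in IR/CHT, which overlap, and in AoV 8.29 to 44.3 CPM and 55.6 to 217 CPM, which do not. KLB alone made up 28.8 to 164 CPM of the AoV sum in IR/CHT. RETN was at 0 in most groups, and LEP was at 0 in all AoV CHT and IR/CHT and all PV CHT libraries.

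Other genes of lipolysis were called in both directions. On CHT, 2 of 13 were higher and 2 lower in the aorta, where 19.4% of all genes were called, and 0 of 12 were called in each valve. ABHD5, the co-activator of triglyceride lipase, was higher (0.75 ± 0.17, edgeR adjusted p = 0.00175), and HCAR1, a receptor that restrains lipolysis, was lower (-3.49 ± 0.85, adjusted p = 0.0028). On IR/CHT the counts were 2 higher and 2 lower of 13 in the aorta (34.3% of all genes), 3 and 2 of 12 in AoV (42.8%) and 0 and 1 of 12 in MV (17.7%), with PDE3B, a phosphodiesterase that damps lipolysis, lower in the aorta (-1.01 ± 0.15) and higher in AoV (1.10).

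Fatty acid and triglyceride synthesis genes called on IR/CHT were mostly lower. On IR/CHT, 6 of 12 were lower and 1 higher in AoV and 5 of 12 were lower in MV, where 42.8% and 17.7% of all genes were called, while on CHT 2 of 12 were lower in AoV (11.9% of all genes) and 1 of 12 was higher in the aorta (19.4%). LPIN1, a phosphatidate phosphatase, fell by 1.24 in AoV (SE 0.14, edgeR adjusted p = 3.5e-08), and ACACB, a carboxylase that makes malonyl-CoA, was -1.65 ± 0.31 there (adjusted p = 9.37e-05). In the aorta on IR/CHT 1 was higher and 2 lower of 12 (34.3% of all genes), and in PV and TV none was called (0.706% and 0.231%).

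Droplet coat and droplet enzyme genes other than the members were called about as often as all genes in the aorta and AoV (34.3% and 42.8%). On IR/CHT, 3 of 11 were higher and 1 lower in the aorta, 3 of 10 and 1 in AoV, 1 of 11 and 1 in MV (17.7% of all genes), 1 of 10 higher in PV (0.706%), and 0 in TV (0.231%). SOAT1, which esterifies cholesterol for storage, was higher in AoV on CHT (1.5 ± 0.30, edgeR adjusted p = 0.000704) and on IR/CHT (2.68 ± 0.30, adjusted p = 4.19e-08), with 8.10, 23.7 and 30.3 CPM in Ctrl, 32.8, 47.6 and 81.1 CPM in CHT and a lowest of 64.1 and a median of 106 CPM in IR/CHT. The HILPDA gene, whose product inhibits triglyceride lipase, was the 1 called in PV (1.54, edgeR adjusted p = 0.0395).

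LPL partners, the receptors and regulators that act with LPL on lipoproteins, were called in the aorta and the left-sided valves, and 1 of them in TV. On IR/CHT, 5 of 6 were higher in the aorta (median 1.98), 4 of 5 in AoV (1.94), 3 of 6 in MV, 0 of 5 in PV and 1 of 6 in TV, against 34.3%, 42.8%, 17.7%, 0.706% and 0.231% of all genes. VLDLR, a receptor that binds LPL with its lipoproteins, was at 4.35, 10.6 and 71.9 CPM in AoV Ctrl and 136, 192.8 and 338 CPM in IR/CHT (3.43 ± 0.51), and in the aorta it was already 3.02 ± 0.25 above Ctrl on CHT (edgeR adjusted p = 2.77e-09). ANGPTL4, an inhibitor of LPL, was higher on IR/CHT in the aorta (2.09 ± 0.51, edgeR adjusted p = 0.00132) and AoV (1.94 ± 0.51, adjusted p = 0.00241), but lower in AoV on CHT (-1.64 ± 0.54, adjusted p = 0.0437).

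On Lard, no gene of the fat cell, lipolysis, synthesis, droplet or LPL partner lists was called by edgeR in any tissue. Lipid-laden and macrophage genes were called in the aorta alone, 5 of 14 and 7 of 13, all higher, where 2.61% of all genes were called.

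Markers of other tissues also differed between treatments. In AoV, 8 of 9 heart muscle genes were lower on CHT (median -4.90) and on IR/CHT (median -4.43) and 5 of 9 on Lard, where 11.9%, 42.8% and 0.234% of all genes were called. Their sum was 187.6 to 12804 CPM in Ctrl, 10.1 to 355 CPM in CHT, 17.7 to 243.9 CPM in Lard and 20.7 to 247.5 CPM in IR/CHT. LIPE and ADIPOQ were also lower in AoV on IR/CHT, and LIPE on CHT, while ADIPOQ on CHT and LIPE on Lard were not called. Without Ctrl L150, the ADIPOQ fall on IR/CHT (edgeR adjusted p = 0.377) and the LIPE fall on CHT (adjusted p = 0.0664) did not pass. Within AoV treatments the heart muscle list gave r = 0.183 with LIPE (rho = 0.263, permutation adjusted p = 0.699) and 0.142 with ADIPOQ (rho = 0.0931, adjusted p = 0.713). The part of adjoining tissue in their change was not tested further. In the aorta, 5 of 8 heart muscle genes were called higher and 1 lower on IR/CHT (34.3% of all genes), but that count includes L566: the other libraries of the group held a sum of 183.3 to 764 CPM, against 561.2 to 777 CPM in Ctrl. Endothelial genes were higher there, 7 of 10 on CHT and 7 of 10, with 1 lower, on IR/CHT, against 19.4% and 34.3% of all genes. Against Ctrl, no endothelial gene was called in the valves. Smooth muscle genes were lower in the aorta, 3 of 6 on CHT and 5 of 6 on IR/CHT, against the same shares, and on IR/CHT 4 of 6 were lower and 2 higher in AoV (42.8% of all genes). In MV 2 of 6 were higher on CHT (5.62% of all genes), and 2 were higher and 1 lower on IR/CHT (17.7%). Of 11 fatty acid oxidation genes, 5 were higher on IR/CHT in AoV, 3 higher and 1 lower in the aorta, and 2 higher in MV, where 42.8%, 34.3% and 17.7% of all genes were called. Of brown fat genes, 4 were tested in each tissue, and on IR/CHT 1 was higher in the aorta, 1 higher and 2 lower in AoV and 1 lower in MV, against 34.3%, 42.8% and 17.7% of all genes, while UCP1, the heat-producing uncoupling protein, had a median of at most 0.0262 CPM in every group.

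Levels in Ctrl tissue ordered differently for each gene. By median, PLIN2 ran PV, Ao, TV, MV, AoV from high to low, LPL ran TV, MV, AoV, Ao, PV, ADIPOQ ran Ao, MV, TV, AoV, PV, CIDEC ran MV, TV, Ao, AoV, PV, and LIPE ran MV, AoV, TV, Ao, PV. PV was last for every gene but PLIN2, for which it was first. Of 20 exact two-sided sign-flip tests between neighbours in these orders, paired by rabbit, none passed after adjustment (lowest adjusted p = 0.3125), an outcome that the design nearly fixes, since a single test among 20 cannot fall below 0.3125 with 7 rabbits. Whether neighbours differ is therefore not settled. The smallest raw p-values were for LPL in TV over MV (1.70, higher in 6 of 6 rabbits, exact p = 0.03125, the smallest that 6 rabbits allow), ADIPOQ in TV over AoV (3.79, higher in 6 of 7, exact p = 0.0469) and LIPE in Ao over PV (0.69, higher in 6 of 7, exact p = 0.0469). With 7 rabbits the smallest possible p is 0.0156.

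Over all 134 libraries and 11250 genes, the genes most like each member in log2 level were sought after the mean of each tissue and treatment was removed. They are given as a description and were not tested. PLIN2 was nearest to CTSV (r = 0.805), LIPA, the lysosomal acid lipase (0.801), HPS3, ASAH1 and TMBIM6. LPL was nearest to CD36, a fatty acid and lipoprotein receptor (0.749), PPARG (0.667), KLB, PYGM and ACSS1, and ADIPOQ to PFKFB1 (0.707), KLB, CD36 (0.693), MC5R and BTNL9. CIDEC was nearest to PFKFB1 (0.823), KLB (0.767), LBP, MC5R and THRSP, and LIPE to ACACB (0.764), TSC22D4, DHX58, RILP and AKT2. Neither PLIN2 nor LIPE shared any of these nearest genes with ADIPOQ, CIDEC or LPL. CD36, near both LPL and ADIPOQ, was at 0.419, 2.62 and 10.7 CPM in AoV Ctrl, 7.18, 12.3 and 25.5 CPM in CHT, and 60.2, 158.7 and 315 CPM in IR/CHT, so that in AoV it stood high where ADIPOQ was near 0.
Between members, r was 0.677 for ADIPOQ with LPL, 0.667 for ADIPOQ with CIDEC, 0.0801 for PLIN2 with ADIPOQ and -0.328 for PLIN2 with LIPE.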

How the data were processed

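RNA of 134 tissue pieces was measured by stranded total RNA sequencing from 10 ng input with a low-input kit. The authors deposited whole-number counts per Ensembl gene in 2 tables, made with the nf-core RNA-seq pipeline on OryCun2.0, with bcl2fastq 2.20 in the submitters' processing notes. Whether counting used strand is not given in the sources used here. Every sample column was matched to 1 sample by its name, and 0 columns were left unused. Of the named entries, 1651 share a symbol with another, but each member has 1.

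Per tissue, genes were filtered by filterByExpr, scaled by TMM and fitted over the 4 treatments with edgeR's quasi-likelihood test (edgeR 4.0.16, R 4.3.3). A call needed a fold over 1.5 and a p-value under 0.05 after Benjamini-Hochberg adjustment, and tests of a difference between tissues at the adjusted p alone. DESeq2 1.42.0 and limma 3.58.1 served for alternatives. CPM used TMM over all 134 libraries, and correlations log2 CPM with a prior count of 2, treatment means removed and 100000 permutations within treatments (numpy 2.4.6, scipy 1.17.1). The macrophage list entered these as the mean log2 CPM of its 13 genes. Order tests numbered 20 rather than 28 because 2 members were absent. The edgeR step was tested on simulated aorta counts for CHT against Ctrl.

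Columns name the rabbit, so tissues pair by animal. Deviations of 1 rabbit correlated between AoV and PV (median r 0.169, 15 of 27 over 0.1, against -0.00772 between rabbits), MV and TV (0.263, 19 of 26, against 0.0105) and AoV and aorta (0.184, 17 of 27, against -0.00541). The members, lists and alternatives were chosen with earlier results of these data known. All members are named. Of each list, up to 3 called genes of smallest p per comparison could be named, and of the nearest genes, 5 per member.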

Additional observations from a re-analysis of the deposited data

Results flagged for a closer look

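Of 100 groups tested for a single distant library, 9 had one, and chance gives about 1 in 20. PLIN2 was at 29.1 CPM in aorta Lard L577 against a group median of 35.2. ADIPOQ was at 61.0 CPM in aorta IR/CHT L580 (median 25.0), 2.21 in MV Ctrl L156 (17.8), 3.40 in MV Lard L249 (17.0), 1.04 in TV CHT L172 (6.80) and 0.544 in TV Lard L272 (13.4). LPL was at 1.90 CPM in PV CHT L171 (6.75), and CIDEC at 0.288 in PV CHT L246 (median 0.0) and 2.70 in PV Lard L271 (0.0574).

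Responses that differed between tissues by edgeR's interaction test without the rabbit as a block, on the log2 scale, are these. For CHT against Ctrl, PLIN2 was higher in AoV than PV by 1.56 and in MV than TV by 1.13. The tests for irradiated animals were chosen after seeing the data. For IR/CHT against Ctrl, AoV minus aorta gave 1.67 for PLIN2, -2.81 for LIPE and -3.30 for CIDEC, and AoV minus MV gave 1.72 for PLIN2 and 2.97 for LPL. AoV minus PV gave 3.37 for PLIN2, 3.34 for LPL, -2.50 for LIPE, -4.82 for ADIPOQ and -4.03 for CIDEC, and MV minus TV gave 1.64 for PLIN2. For IR/CHT against CHT, PLIN2 gave 1.46 for AoV minus aorta and 1.31 for AoV minus MV. With the rabbit as a block, AoV minus PV did not pass for ADIPOQ (-1.59, limma adjusted p = 0.576), CIDEC (-1.15, adjusted p = 0.664) or LPL (2.69, adjusted p = 0.0554), and AoV minus aorta did not for CIDEC (-3.72, adjusted p = 0.0560). These tests were not refitted without AoV Ctrl L150 or PV IR/CHT L176, the highest libraries of their groups for ADIPOQ and CIDEC. CIDEC and ADIPOQ were low in AoV and PV, with group medians of at most 1.09 CPM, and the tests were not refitted with another prior count.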

How the results depend on the processing

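Of 34 called member values, 24 passed in every alternative run and 0 changed direction, while 58 of 126 values that were not called changed sign in at least 1. The PLIN2 calls against Ctrl were among those that always passed. The number of members called moved as follows. With DESeq2 it was 1 rather than 0 for IR/CHT against CHT in the aorta and in MV, for Lard against Ctrl in AoV and for IR/CHT against Ctrl in TV. For CHT against Ctrl in AoV it was 1 rather than 2 with the 2 groups fitted alone and on plate 1 alone. For IR/CHT against Ctrl it was 1 rather than 4 in AoV on plate 2 alone, and 1 rather than 2 in MV with no filter and on plate 1 alone. Leaving out 1 library gave 3 to 4 for IR/CHT against Ctrl in AoV (ADIPOQ called in 13 of 27 fits) and 2 to 3 in the aorta (LIPE in 22 of 27). It gave 0 to 1 for IR/CHT against CHT in the aorta (1 without CHT L559 or IR/CHT L579) and in MV (1 without CHT L266 or IR/CHT L175), 0 to 1 for IR/CHT against Ctrl in TV (1 without Ctrl L168), 1 to 2 for CHT against Ctrl in AoV (1 without Ctrl L150), 1 to 2 for IR/CHT against Ctrl in MV (1 without Ctrl L262 or L278), and 1 to 2 for the CHT response of AoV against PV (2 without AoV CHT L151 or AoV Ctrl L240).

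With the rabbit as a replicate block (limma, 1 fit over all tissues, consensus correlation 0.185), the members called for the IR/CHT response of AoV against PV were 2 rather than 5, since ADIPOQ (-1.59, adjusted p = 0.576), CIDEC (-1.15, adjusted p = 0.664) and LPL (2.69, adjusted p = 0.0554) did not pass, and for IR/CHT against CHT in AoV against aorta they were 2 rather than 1, as with plate as a covariate, 2. CIDEC for AoV against aorta passed neither under the block (-3.72, adjusted p = 0.0560) nor with plate (-3.28, adjusted p = 0.0507). The causes of these moves were not tested. Low levels of ADIPOQ and CIDEC in AoV and PV, often 0 to 3 counts, limit what can be seen there.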
